A study of Mus musculus with 63 samples.

Results

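6 genes of autonomic signalling were followed in hearts of the 8 inbred strains that founded the Diversity Outbred mice. They are the adrenergic receptor genes Adrb1, Adra1a and Adra1b, the muscarinic receptor gene Chrm2 and the adenylyl cyclase genes Adcy5 and Adcy6. They were taken by gene symbol from a heart count table of 19220 genes, which makes 6 of 19220, and all 6 passed the filter on low counts that left 16425 genes. The strains carry the labels PWK, Cast, WSB, 129, AJ, B6, NOD and NZO, and each had 8 libraries except Cast, which had 7 (63 in all). Every mouse was on a diet high in fat and sugar (45% fat), so no group on another diet stands beside them. The labels used here give neither sex nor age. Titles carry an identifier per library, and nothing else says that replicates were separate animals, so the p-values measure the spread between these libraries.

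Noradrenaline and adrenaline act on the heart through receptors coupled to G proteins. The β1 receptor, encoded by Adrb1, couples to Gs, which stimulates adenylyl cyclase. The cyclic AMP that the cyclase makes activates protein kinase A, and the heart then beats faster and with more force. Adcy5 and Adcy6 encode the adenylyl cyclases best known in cardiac muscle. The α1A and α1B receptors, encoded by Adra1a and Adra1b, couple to Gq and phospholipase C. The M2 muscarinic receptor, encoded by Chrm2, answers acetylcholine from the vagus nerve, couples to Gi and lowers cyclase activity and heart rate. It is best known from the atria and the pacemaker tissue.

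Total estimated counts were between 21.8 M and 42.9 M per library (M for 1e+06). All 10 cardiomyocyte markers were measured, with a summed level of 49333 to 93468 CPM over the libraries (CPM, counts scaled to a library total of 1e+06). WSB_1 (replicate 1 of WSB) stood apart. Its median correlation with the other WSB libraries was 0.94 (log2 CPM over all tested genes), and the next lowest library, NZO_8, had 0.97 with its own strain. Cardiomyocyte markers summed to 49333 CPM in WSB_1, against 87505 ± 3514 CPM in the other 7 WSB libraries (SD). Not every marker fell: Myh6 was 13806 CPM in WSB_1 against 31417 to 36291 CPM in the other 7. Tnnt2 was 4980 CPM against 3442 to 4162 CPM. Summed endothelial markers were 2360 against 1139 ± 87.0 CPM and summed Schwann cell markers 39.0 against 17.8 ± 1.61 CPM in the same comparison. Fibroblast markers were 1265 against 1134 ± 145 CPM. Summed macrophage markers were 411 CPM in NZO_8 and 122 to 224 CPM in all other libraries, and no result was recomputed without NZO_8. In Cast, Fkbp5, a gene induced by glucocorticoids that was singled out after its values were seen, had 363, 235 and 256 CPM in Cast_1, Cast_5 and Cast_6 and between 54.0 and 107 CPM in the other 4 libraries. WSB_1 and these Cast libraries stayed in the fit unless a sentence says otherwise. In RNA from whole tissue, fewer cells of a type and less RNA per cell cannot be told apart.

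Over all strains, each of the 6 genes passed edgeR's quasi-likelihood test with Benjamini-Hochberg adjustment, and so did 90.3% of the genes tested. The adjusted p was 2.67e-19 for Adcy5, 1.57e-17 for Adcy6, 3.70e-11 for Adra1a, 2.70e-07 for Chrm2, 2.71e-07 for Adra1b and 3.01e-05 for Adrb1. Strain differences were thus the usual case in these hearts. The strain means of log2 CPM spanned 1.87 log2 units for Adra1a, 1.42 for Chrm2, 1.19 for Adra1b, 1.09 for Adcy5, 0.81 for Adcy6 and 0.70 for Adrb1. The span of Chrm2 rested on WSB_1 and was 1.06 log2 units without it, below Adra1b and Adcy5, while the other 5 kept their spans. The median span over all tested genes was 0.78. Strain accounted for the most variance in Adcy6 and Adcy5 (adjusted R2 0.78 and 0.77) and for the least in Adrb1 (0.31). Without WSB_1 the adjusted R2 was 0.94 for Adcy5, 0.78 for Adcy6 and 0.51 for Adrb1, still the lowest of the 6.

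PWK had the highest mean level of all 6 genes, and all 6 were higher in PWK than in the mean of the other 7 strains (edgeR, adjusted p below the threshold of 0.05). That direction was called for 27.4% of all tested genes in PWK. NZO lay at the other end, with 5 of the 6 lower than in the other strains (18.6% of all tested genes were lower in NZO). The sixth, Adra1a, was not called there (log2 fold change -0.30 ± 0.15, SE, adjusted p 0.0927), and was called lower, at -0.32 ± 0.11 (adjusted p 0.0162), once WSB_1 was left out. The remaining strains were mixed. AJ had 4 genes lower (18.1% of all tested genes) and 1 higher (21.1%), WSB had 2 lower (19.8%) and 1 higher (25.6%), 129 had 3 higher (16.8%), Cast had 3 higher (30.9%), NOD had 2 lower (13.9%) and B6 had 1 lower (14.3%). In NZO hearts, the 8 fibroblast markers summed to 1515 to 1963 CPM, against 472 to 1468 CPM in all other libraries, and their part in the NZO results was not tested. In PWK hearts, cardiomyocyte markers summed to 75665 to 81676 CPM, within the range of the other strains.

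**Figure D1:**
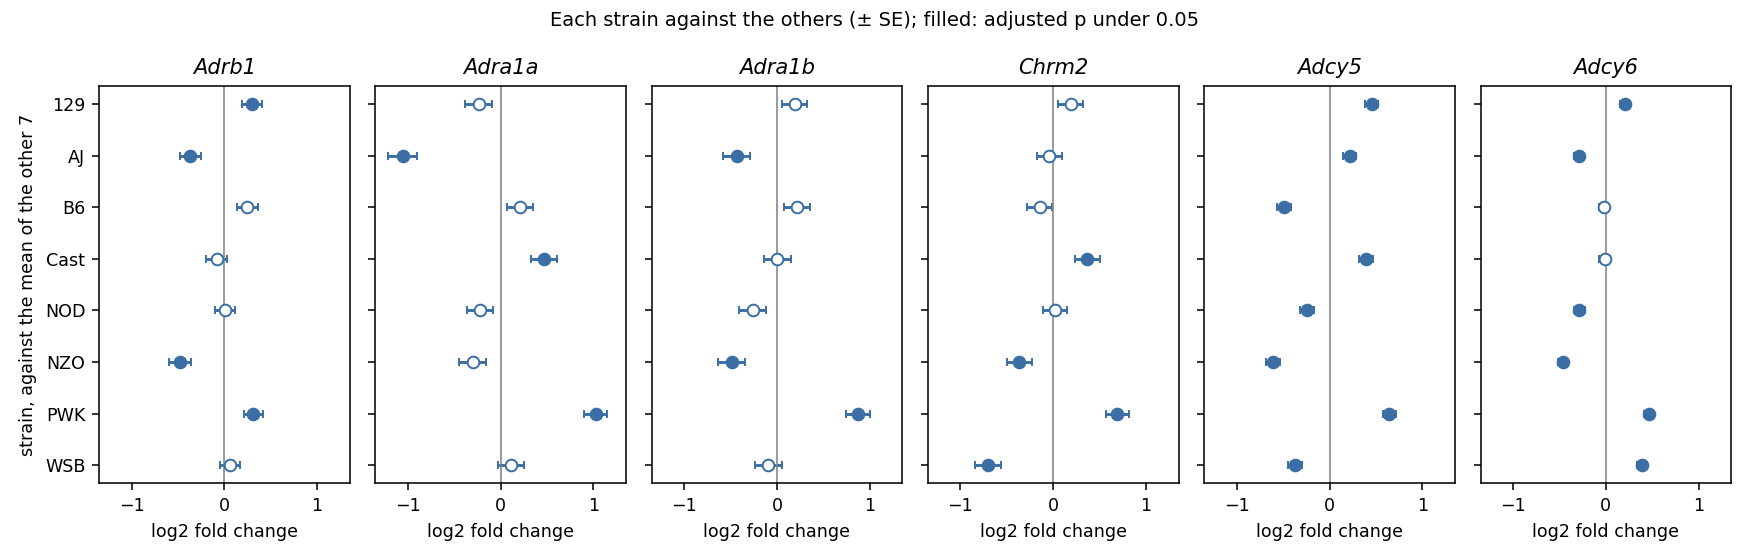
Log2 fold change (x axis, ± SE) of each strain (y axis) against the mean of the other 7, with 1 panel per gene and filled points where the adjusted p was below 0.05. PWK is to the right of 0 in all 6 panels and NZO to the left in all 6, with the NZO point of Adra1a unfilled.

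Promoter sequence was available for 4 of the 6 genes from RefSeq (build GRCm38.p6), and 3 are printed here, those of Adrb1 with the narrowest span, Chrm2 with its low values in WSB, and Adcy5 with its division of the strains. Each runs from 250 bases before to 50 after RefSeq's start of the gene, 5′ to 3′ on the gene's strand, which is the plus strand for all 3. RefSeq's start is not the GENCODE start of the gene coordinates given further on for Adrb1 and Adcy5, and the Adrb1 window ends before the GENCODE start. Capitals mark TGACG, the core of the cyclic AMP response element, and the GC box GGGCGG, each searched on both strands (CGTCA and CCGCCC on the other).
Adrb1 promoter, chr19:56721867-56722166: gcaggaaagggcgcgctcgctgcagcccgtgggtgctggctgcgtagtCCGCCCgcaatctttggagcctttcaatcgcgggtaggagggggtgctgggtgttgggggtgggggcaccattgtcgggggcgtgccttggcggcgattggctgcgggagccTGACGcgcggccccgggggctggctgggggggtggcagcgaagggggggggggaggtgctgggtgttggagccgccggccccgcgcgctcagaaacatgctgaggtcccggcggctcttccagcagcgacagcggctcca
Chrm2 promoter, chr6:36387834-36388133: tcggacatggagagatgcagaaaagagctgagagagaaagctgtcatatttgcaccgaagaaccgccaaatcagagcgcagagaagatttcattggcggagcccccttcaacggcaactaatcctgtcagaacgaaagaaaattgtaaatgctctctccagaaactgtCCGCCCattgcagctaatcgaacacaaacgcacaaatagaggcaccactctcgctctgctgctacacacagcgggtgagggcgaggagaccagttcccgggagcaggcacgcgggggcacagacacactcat
Adcy5 promoter, chr16:35154614-35154913: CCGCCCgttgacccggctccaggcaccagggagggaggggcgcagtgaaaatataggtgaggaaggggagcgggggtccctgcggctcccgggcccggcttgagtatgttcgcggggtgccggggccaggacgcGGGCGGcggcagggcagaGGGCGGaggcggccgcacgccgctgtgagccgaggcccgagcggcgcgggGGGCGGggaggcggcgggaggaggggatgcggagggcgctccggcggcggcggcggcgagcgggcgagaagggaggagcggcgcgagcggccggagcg
TGACG occurred 1 time in the Adrb1 window, at position -90 from RefSeq's start, and not in the Chrm2, Adcy5 or Adra1b windows; 20.8% of 32851 mouse promoters of this length hold it. The full element TGACGTCA was in none of these windows and in 1.79% of all promoters. The Adcy5 window held GGGCGG 4 times and the Adrb1 and Chrm2 windows 1 time each, and 35.7% of all promoters hold it. These matches describe the reference genome, which comes from B6, and no strain's own sequence was read.

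Adrb1, the β1 receptor gene (chr19:56722199-56733113, plus strand, GRCm38), spanned the least of the 6. Its levels had a lowest, median and highest value of 11.4, 13.2 and 16.1 CPM in PWK and of 9.70, 13.2 and 16.2 CPM in 129. In NZO the same 3 values were 6.33, 8.43 and 10.3 CPM, and in AJ they were 7.10, 9.38 and 10.5 CPM. Every PWK library was thus above every NZO library and every AJ library, while 129 overlapped both. Adrb1 was higher in PWK, at 13.5 ± 1.75 CPM (SD, n = 8) against a mean of 11.03 CPM for the rest, a log2 fold change of 0.31 ± 0.11 (SE, edgeR's quasi-likelihood test, adjusted p 0.0100). It was higher in 129 by 0.30 ± 0.11 (adjusted p 0.0295). It was lower in NZO, at 8.37 ± 1.504 CPM (SD, n = 8) against 11.8 CPM, a log2 fold change of -0.48 ± 0.12 (adjusted p 0.000613), and lower in AJ at -0.37 ± 0.11 (adjusted p 0.00756). B6, at 13.01 ± 1.29 CPM (SD, n = 8), had a mean close to that of 129, at 13.4 ± 1.96 CPM, and missed the threshold (0.25 ± 0.11, adjusted p 0.0729).

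In descending order of their mean log2 CPM, the strains ran PWK, 129, B6, NOD, WSB, Cast, AJ and NZO for Adrb1, and no neighbouring pair in that order passed the test. PWK and 129 differed by 0.01 log2 units (95% interval -0.27 to 0.30). Of the 28 pairs of strains, 10 passed. Among all tested genes, the share that passed ran from 21.3% in the pair of 129 and B6 to 57.0% in the pair of Cast and NZO. Without WSB_1 the same 2 pairs had the lowest and highest shares, 26.4% and 62.0%. These shares stand beside the pair counts of all 6 genes, so a gain in pairs without WSB_1 is not particular to them. Cast_1 had 5.43 CPM and WSB_1 had 3.54 CPM, the lowest levels of Adrb1 in the series. Without WSB_1, WSB averaged 12.8 ± 1.90 CPM (SD, n = 7) and stood between B6 and NOD, 16 of the 28 pairs and again no neighbouring pair passed, and B6 was called higher than the others (0.23 ± 0.08, adjusted p 0.0261). Without AJ_2, AJ_7 and AJ_8 the call in AJ was lost (-0.34 ± 0.14, adjusted p 0.0697).

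**Figure D2:**
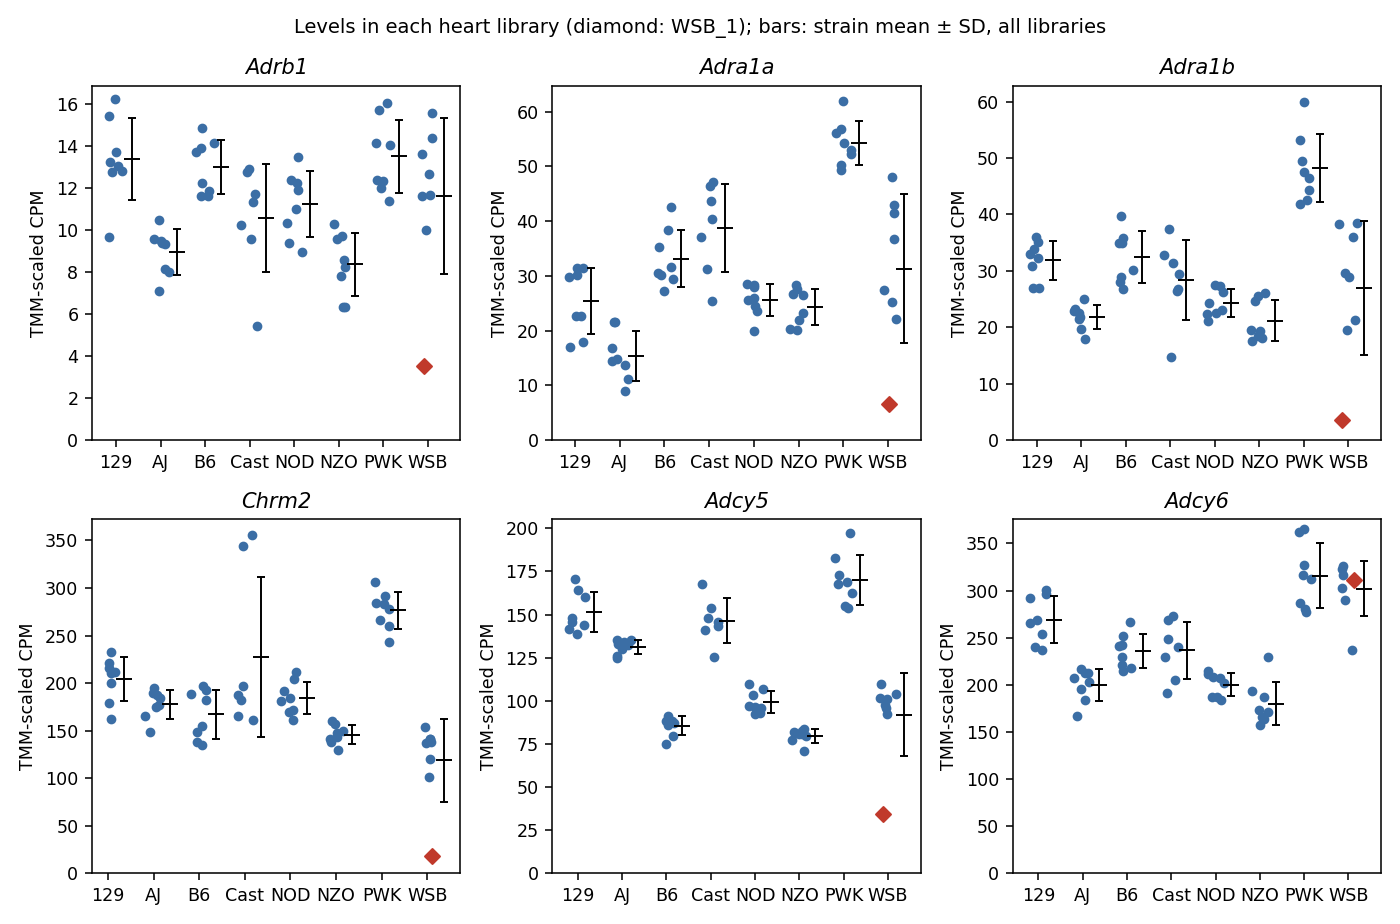
CPM of each gene (y axis, linear from 0) in every library, by strain (x axis), with bars for the strain mean ± SD over all its libraries and WSB_1 as a diamond. All PWK points of Adra1a and Adra1b lie above all points of the other strains, and WSB_1 lies far below its strain for every gene except Adcy6.

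Adra1a, the α1A receptor gene (chr14:66635251-66771168, plus strand), differed most among the strains. PWK libraries had 49.3, 53.7 and 61.9 CPM as lowest, median and highest, against 8.90, 14.7 and 21.7 CPM in AJ. Cast ran from 25.5 to 47.2 CPM with a median of 40.4 CPM. All 8 PWK libraries exceeded all 55 libraries of the other strains, a pattern that 1.96% of the tested genes showed in PWK. In AJ the level was low without being separate, since WSB_1 and the lowest libraries of 129, NOD and NZO fell within or below its range. Adra1a was higher in PWK, at 54.3 ± 4.05 CPM (SD, n = 8) against a mean of 27.7 CPM for the others, by 1.02 ± 0.13 log2 units (SE, adjusted p 6.32e-10). In AJ it was lower, at 15.4 ± 4.55 CPM against 33.3 CPM, a log2 fold change of -1.06 ± 0.16 (adjusted p 9.18e-08). In Cast it was 38.8 ± 8.08 CPM (SD, n = 7) against 29.9 CPM, higher by 0.47 ± 0.14 (adjusted p 0.00414).

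The strain order for Adra1a was PWK, Cast, B6, WSB, NOD, 129, NZO and AJ. The top step, from PWK to Cast, passed the test (0.49 ± 0.19 log2 units, adjusted p 0.0277, a pair in which 53.9% of all tested genes passed), and so did the bottom step, from NZO to AJ (0.66 ± 0.19, adjusted p 0.00539, 28.8% of all tested genes). The 5 steps between them did not. Between the extremes, PWK exceeded AJ by 1.82 ± 0.19 log2 units, a fitted 3.53-fold difference (adjusted p 3.29e-12, 51.9% of all tested genes). Libraries within a strain were uneven for this gene: WSB ran from 22.1 to 48.1 CPM without WSB_1, which had 6.58 CPM. With WSB_1 left out, Adra1a in WSB was called higher than in the other strains (0.27 ± 0.11, adjusted p 0.0476), against 0.11 ± 0.14 (adjusted p 0.536) with it. WSB then stood between Cast and B6, the step from B6 to NOD passed as well (0.38 ± 0.15, adjusted p 0.0407, 30.9% of all tested genes), and 22 of the 28 pairs passed, against 16 with WSB_1.

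Adra1b, the α1B receptor gene (chr11:43774606-43901210, minus strand), shared its top strain with Adra1a but not its bottom one. Its levels in PWK were 41.8, 46.9 and 59.9 CPM (lowest, median and highest). In NZO they were 17.5, 19.4 and 26.0 CPM, and in AJ 18.0, 22.2 and 25.1 CPM. Again every PWK library lay above all 55 others, while the AJ libraries lay within the range of the NZO libraries. Adra1b was higher in PWK, at 48.2 ± 6.04 CPM (SD, n = 8) against a mean of 26.7 CPM for the other strains, by 0.87 ± 0.13 log2 units (SE, adjusted p 5.54e-08). It was lower in NZO, at 21.1 ± 3.64 CPM against 30.6 CPM, a log2 fold change of -0.49 ± 0.15 (adjusted p 0.00552), and in AJ at -0.43 ± 0.15 (adjusted p 0.0135).

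The order for Adra1b was PWK, B6, 129, Cast, NOD, WSB, AJ and NZO, and the step from PWK to B6 was the only neighbouring pair to pass (0.57 ± 0.18 log2 units, adjusted p 0.00797, 48.1% of all tested genes). AJ and NZO differed by 0.05 log2 units, with a 95% interval of -0.33 to 0.42. Across all pairs, 11 of 28 passed, and 18 of 28 did without WSB_1, when WSB stood between 129 and Cast. In NOD the gene averaged 24.3 ± 2.47 CPM (SD, n = 8) and was not called against the other strains (-0.26 ± 0.14, adjusted p 0.159). It was called lower there without WSB_1 (-0.29 ± 0.09, adjusted p 0.0103). Cast_1 had 14.8 CPM and WSB_1 had 3.54 CPM, both below every other library of their strain.

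Chrm2, the M2 receptor gene (chr6:36388084-36528414, plus strand), was highest in PWK and lowest in WSB, where it was the only receptor of the 4 to be called lower. PWK libraries had 244, 281 and 306 CPM as lowest, median and highest, against 101, 138 and 153 CPM in the 7 WSB libraries other than WSB_1, which had 18.2 CPM. NZO had 129, 145 and 160 CPM. All PWK libraries lay above all libraries of every strain but Cast. Chrm2 was higher in PWK, at 277 ± 19.5 CPM (SD, n = 8) against a mean of 175 CPM for the others, by 0.69 ± 0.12 log2 units (SE, adjusted p 3.56e-06). It was lower in WSB, at 119 ± 43.6 CPM (SD, n = 8) against 198 CPM, a log2 fold change of -0.71 ± 0.14 (adjusted p 3.15e-05), and at -0.54 ± 0.09 without WSB_1 (adjusted p 1.78e-06). In NZO it was lower, at -0.37 ± 0.14 (adjusted p 0.0257), a call lost by limma on the variance-stabilised table (-0.32, adjusted p 0.0679).

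In Cast, Chrm2 fell into separate levels. Cast_5 and Cast_6 had 355 and 344 CPM, the highest of all 63 libraries, and the other 5 Cast libraries had 162, 165, 182, 187 and 197 CPM. The mean of 227 ± 84.4 CPM (SD, n = 7) was called higher than in the other strains (0.37 ± 0.14, adjusted p 0.0170), but without these 2 libraries the log2 fold change was 0.02 ± 0.15 (adjusted p 0.939). Summed fibroblast markers were 503 CPM in Cast_5 and 472 CPM in Cast_6, the lowest values of the series, and Fkbp5 was high in both. Cast_1 had the highest Fkbp5 of all libraries and the next lowest fibroblast sum, 549 CPM, yet its 162 CPM of Chrm2 was the lowest in Cast. The part of either in the Chrm2 level was not tested.

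No neighbouring pair passed in the order PWK, Cast, 129, NOD, AJ, B6, NZO and WSB, and 14 of the 28 pairs of strains passed for Chrm2. Without WSB_1 the order was the same, the step from PWK to Cast passed (0.28 ± 0.11 log2 units, adjusted p 0.0270, 59.0% of all tested genes), and 20 of the 28 pairs did. Atrial markers, 8 of 8 measured, summed to 1038 to 1740 CPM in PWK, 614 to 1849 CPM in WSB and 602 to 2691 CPM over all libraries. With the mean log2 CPM of Myl7, Myl4, Sln and Bmp10 among them as a covariate, the log2 fold change of Chrm2 was 0.69 in PWK and -0.68 in WSB. Chrm2 shares 142 exonic bases with a gene on the opposite strand, the noncoding 9330158H04Rik, and the strand use of the counting is not given in the sources used here. Counts of 9330158H04Rik were 2.99% to 7.79% of those of Chrm2 in 62 libraries and 39.7% in WSB_1. That gene was also higher in PWK (0.66 ± 0.08, adjusted p 6.11e-11) and lower in WSB (-0.83 ± 0.09, adjusted p 2.38e-11), and reads of the shared bases cannot be assigned between the pair.

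Adcy5, a cyclase gene (chr16:35154877-35305738, plus strand), was called in every strain. Lowest, median and highest levels were 154, 168 and 197 CPM in PWK, 139, 147 and 171 CPM in 129, 125, 145 and 168 CPM in Cast and 125, 133 and 135 CPM in AJ. In NOD they were 92.6, 96.8 and 110.0 CPM, in B6 74.7, 87.6 and 91.3 CPM and in NZO 70.7, 80.5 and 83.5 CPM. WSB had 92.1 to 109.7 CPM without WSB_1, and 34.4 CPM in that library. Every library of PWK, 129, Cast and AJ was above every library of NOD, B6, NZO and WSB. This split was read from these values, and the share of all tested genes that separate so was not counted. The SD within a strain was between 3.07% of the mean in AJ and 8.86% in Cast, with 5.77% in WSB without WSB_1 and 26.0% with it.

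Adcy5 was higher in PWK, at 170.1 ± 14.4 CPM (SD, n = 8) against a mean of 112 CPM for the others, by 0.64 ± 0.07 log2 units (SE, adjusted p 1.69e-12). The log2 fold change was 0.46 ± 0.07 in 129 (adjusted p 2.25e-07), 0.40 ± 0.07 in Cast (adjusted p 4.95e-06) and 0.22 ± 0.07 in AJ (adjusted p 0.0109). Without AJ_2, AJ_7 and AJ_8 the value in AJ was 0.22 ± 0.09 and the call was lost (adjusted p 0.0647). On the lower side, NZO averaged 79.5 ± 4.09 CPM (SD, n = 8) against 125 CPM, a log2 fold change of -0.61 ± 0.08 (adjusted p 8.30e-10). It was -0.49 ± 0.08 in B6 (adjusted p 2.50e-07), -0.37 ± 0.07 in WSB (adjusted p 3.75e-05) and -0.24 ± 0.07 in NOD (adjusted p 0.00732). The value in WSB was -0.24 ± 0.04 without WSB_1 (adjusted p 8.86e-07). In the order PWK, 129, Cast, AJ, NOD, WSB, B6 and NZO, AJ to NOD was the one neighbouring pair to pass (0.40 ± 0.10 log2 units, adjusted p 0.000801, 23.5% of all tested genes). With WSB_1 left out, WSB stood between AJ and NOD, and 25 of the 28 pairs passed, against 18 with it. The neighbouring pairs that passed were then PWK over 129 (0.16 ± 0.05, adjusted p 0.00362, 51.4% of all tested genes), Cast over AJ (0.16 ± 0.05, adjusted p 0.00619, 61.9%), AJ over WSB (0.39 ± 0.05, adjusted p 3.40e-09, 44.0%) and NOD over B6 (0.22 ± 0.05, adjusted p 0.000372, 30.9%).

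Adcy6, the second cyclase gene (chr15:98589973-98610076, minus strand), followed another order. PWK had 277, 315 and 365 CPM as lowest, median and highest, and WSB had 237, 311 and 326 CPM. NZO had 158, 172 and 229.6 CPM. The PWK and WSB libraries were all above the NZO libraries. Adcy6 was higher in PWK, at 316 ± 34.3 CPM (SD, n = 8) against a mean of 232 CPM for the others, by 0.47 ± 0.05 log2 units (SE, adjusted p 1.97e-11). It was higher in WSB, at 302 ± 28.8 CPM against 234 CPM, by 0.39 ± 0.05 (adjusted p 8.50e-09), and in 129 by 0.20 ± 0.05 (adjusted p 0.00249). WSB_1 did not stand apart for this gene, with 311 CPM against 301 ± 30.9 CPM (SD, n = 7) in the rest of WSB. Adcy6 was lower in NZO at -0.46 ± 0.06 (adjusted p 8.76e-10), in AJ at -0.29 ± 0.06 (adjusted p 3.23e-05) and in NOD at -0.29 ± 0.06 (adjusted p 4.06e-05).

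B6 and Cast were not called for Adcy6, with log2 fold changes of -0.02 ± 0.06 and -0.01 ± 0.06. Of the 28 pairs, 21 passed, and among neighbours only Cast over NOD did (0.24 ± 0.08 log2 units, adjusted p 0.00549, 56.2% of all tested genes). Without WSB_1, 129 over B6 passed as well (0.19 ± 0.07, adjusted p 0.0356, 26.4%). PWK and WSB differed by 0.06 log2 units (95% interval -0.08 to 0.21). An antisense gene, Gm29331, shares 605 exonic bases with Adcy6 and was not analysed here.

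Levels can be set between genes only per length. Per kb of merged exon, the strain means ran from 26.5 to 46.6 CPM per kb for Adcy6, from 19.6 to 45.7 for Chrm2, from 11.1 to 23.7 for Adcy5, from 6.25 to 14.2 for Adra1b, from 2.48 to 3.998 for Adrb1 and from 1.76 to 6.22 for Adra1a. The stretch deposited for Adrb1 with the counts, 56722372 to 56724862, was shorter than the 3.382 kb of merged exon used here. The Adrb1 values per kb may thus be too low and the ratios of Chrm2 to Adrb1 too high, in every strain alike. For Adra1a the deposited end, 66733462, also came before the GENCODE end. Per kb, Adcy6 exceeded Adcy5 in every library. The ratio of Adcy6 to Adcy5, per kb, averaged 3.18 ± 0.31 in WSB without WSB_1 (SD, n = 7; 9.58 in WSB_1), 2.93 ± 0.22 in B6, 2.40 ± 0.30 in NZO, 2.14 ± 0.13 in NOD, 1.98 ± 0.26 in PWK, 1.89 ± 0.21 in 129, 1.72 ± 0.24 in Cast and 1.62 ± 0.15 in AJ (SD, n = 8, 7 in Cast). WSB and B6 thus had the largest ratios, and B6 at 2.65 to 3.22 did not overlap AJ, Cast, 129, NOD or PWK. Adra1b over Adra1a, per kb, averaged 3.89 ± 0.94 in AJ and 3.46 ± 1.07 in 129 and between 2.06 and 2.54 in the other strains. The ratio of Chrm2 to Adrb1 averaged 11.6 ± 1.61 in PWK and 11.3 ± 1.81 in AJ, against 7.19 ± 0.9996 in B6 and 5.92 ± 1.17 in WSB without WSB_1. In Cast it was 12.6 ± 4.74, and 8.90 ± 1.55 (SD, n = 4) without Cast_1, Cast_5 and Cast_6, which were left out after their values were seen. These ratios are descriptions and carry no test.

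**Figure D3:**
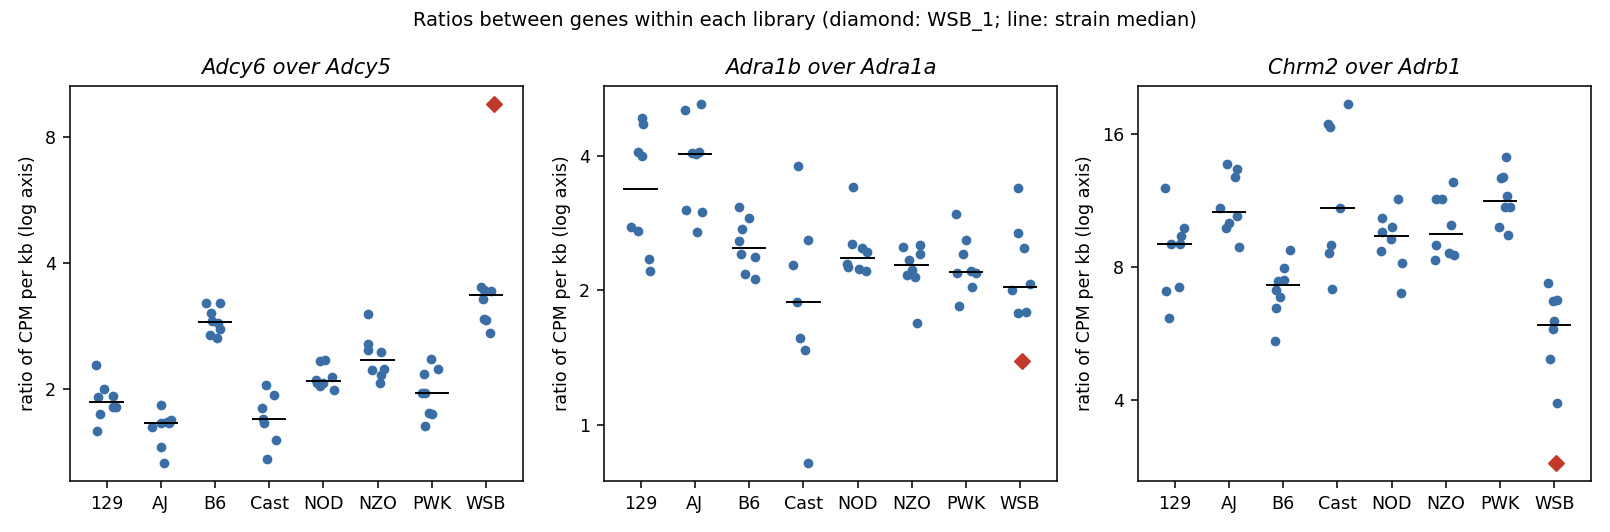
Ratio of CPM per kb (y axes, log axes) of Adcy6 to Adcy5, of Adra1b to Adra1a and of Chrm2 to Adrb1 in each library, by strain (x axis), with the strain median as a line and WSB_1 as a diamond. WSB_1 has the highest ratio of Adcy6 to Adcy5 of all libraries, at 9.58, and the strain medians of WSB and B6 are above those of the other 6 strains.

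Within strains the genes varied little together once WSB_1 was left out. Deviations of log2 CPM from the strain mean were compared over 62 libraries for the 15 pairs of genes, with permutation within strains (1e+05 resamples, two-sided) and Benjamini-Hochberg adjustment over the pairs. Adra1b and Chrm2 had a Pearson r of 0.44 (p 0.00902, adjusted 0.0676) and a Spearman rho of 0.43 (p 0.00116, adjusted 0.0174), and r was 0.41 without the 2 libraries farthest out on Adra1b. Adrb1 and Adra1b had an r of 0.50 (p 0.00231, adjusted 0.0347) and a rho of 0.34 (p 0.0122, adjusted 0.0914), and r was 0.30 without the 2 libraries farthest out on Adrb1, so that this relation rested in part on them. The other 13 pairs had adjusted p-values of 0.141 or more by either measure, with r between -0.24 and 0.27. With WSB_1 included, r of Adra1b with Chrm2 was 0.84 and that of Chrm2 with Adcy5 was 0.82, against 0.22 for Chrm2 with Adcy5 without it.

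**Figure D4:**
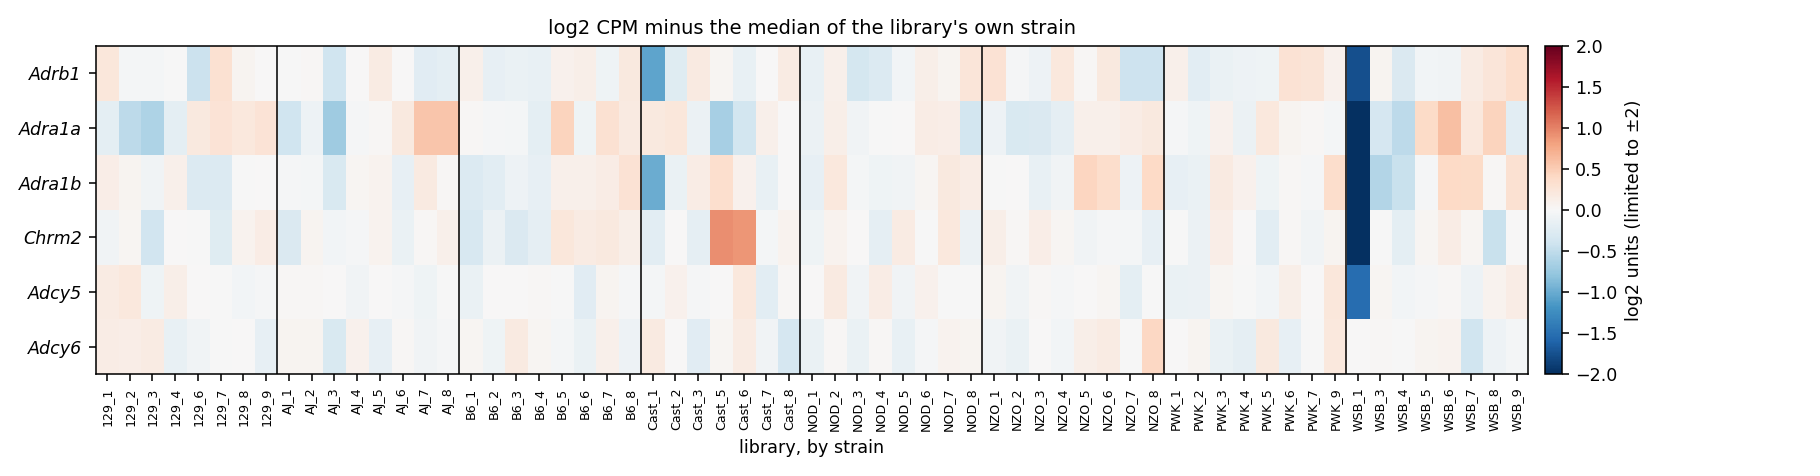
Log2 CPM minus the median of the library's own strain (colour, log2 units, limited to 2 in either direction) for each gene (rows) and library (columns, by strain). WSB_1 is dark blue for every gene except Adcy6, Cast_1 is blue for Adrb1 and Adra1b, and Cast_5 and Cast_6 are red for Chrm2.

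Some genes had strain means that ran alongside those of the 6. Among 4150 genes whose log2 CPM averaged 3 or more and whose span was 0.5 log2 units or more, the 3 with the highest Pearson r over the 8 strain means were taken for each gene, as a description with no test. The strain means included WSB_1, and r over them was not computed without it. For Adcy5 they were Slc38a1, a glutamine transporter gene (r = 0.99), Tceal8 (0.94) and Hand2, a cardiac transcription factor gene (0.91). For Adcy6 they were Tfpi, which encodes an inhibitor of coagulation (0.96), Ccdc141 (0.95) and the ephrin receptor gene Epha7 (0.94). Chrm2 ran with Nol11 (0.97), Tmx4 (0.96) and Aldh1l2 (0.95). Within strains without WSB_1, r with Chrm2 was 0.54 for Nol11, 0.82 for Tmx4 and 0.19 for Aldh1l2. Adra1a ran with Cdc26 (0.97), Rfx7 (0.94) and Pik3c2a (0.94), and Adra1b with Agk (0.96), Inafm2 (0.96) and Kctd2 (0.95). For Adrb1 the highest were lower, with Unc45b, a myosin chaperone gene, at 0.91 and Ctnna3 and Lman2l at 0.89. Within strains, without WSB_1, r was 0.31 for Slc38a1 with Adcy5, 0.35 for Tfpi with Adcy6 and -0.18 for Cdc26 with Adra1a.

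The wider pathway was read from lists of genes. Over all lists, 144 other genes were tested, of which 53 were higher and 34 lower in PWK (27.4% and 26.8% of all tested genes), 41 higher and 28 lower in NZO (22.5% and 18.6%), and 42 higher and 39 lower in WSB (25.6% and 19.8%). The median log2 fold change of these genes was 0.08 in PWK and -0.02 in NZO, against 0.67 and -0.47 for the 6 receptor and cyclase genes and -0.01 and 0.00 for all tested genes. Of the other adrenergic receptors, 6 of 6 tested passed over all strains, with a median span of 1.52 log2 units. Both values include Adra2a, which passed the filter on low counts through Cast alone, so its pass carries no weight. Of these 6, 3 were higher and none lower in PWK (27.4% and 26.8% of all tested genes). One of the 3 was Adrb3, which is also an adipocyte marker, and summed adipocyte markers ran from 7.94 to 115 CPM in PWK. Adra2a, an α2 receptor gene singled out after its values were seen, was 1.33 ± 0.44 CPM in Cast and at most 0.11 CPM on average in any other strain. It had 22 to 54 counts in the Cast libraries and at most 8 in any other. It thus passed the filter on low counts through Cast alone, and no test of it is given by itself.

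Of the other adenylyl cyclases, 6 of 7 tested passed, with a median span of 1.05. Adcy1 had 19.9 ± 3.12 CPM in AJ against 3.65 ± 1.49 CPM in WSB, and was higher in AJ by 1.06 ± 0.11 log2 units (adjusted p 3.91e-12) and lower in WSB at -1.74 ± 0.15 (adjusted p 1.89e-15). It was also higher in PWK, at 18.1 ± 2.83 CPM (0.89 ± 0.11, adjusted p 4.42e-10), and in 129, at 17.0 ± 2.62 CPM (0.79 ± 0.12, adjusted p 7.80e-08). Adcy7 had its highest strain mean in NZO, at 20.8 ± 2.37 CPM, against 11.1 ± 4.90 CPM in Cast. Adcy8, also singled out after its values were seen, was 7.26 ± 0.88 CPM in Cast against 0.04 to 2.60 CPM on average in the other strains. Among other muscarinic and adenosine receptors, 5 of 5 tested passed, with a median span of 1.14. Adora1, the Gi-coupled adenosine A1 receptor gene, had 42.0 ± 25.1 CPM in Cast against 9.06 ± 2.16 CPM in B6. Its level was 97.3 CPM in Cast_1 and 25.1 to 41.6 CPM in the other 6 Cast libraries. It was also higher in PWK (0.90 ± 0.12, adjusted p 1.33e-09), as Chrm2 was.

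The G protein subunits varied less, with 17 of 22 tested passing and a median span of 0.52 log2 units. Gnb3, a β subunit gene, had 12.3 ± 2.42 CPM in NZO against 3.12 ± 0.66 CPM in PWK, while Adrb1, Adra1b, Adcy5 and Adcy6 had their highest means in PWK and their lowest in NZO. Gnao1, which encodes the Go α subunit, was highest in NZO at 35.2 ± 1.32 CPM and lowest in WSB at 16.3 ± 3.15 CPM. Of the receptor kinases, arrestins and RGS proteins, 13 of 16 passed, with a median span of 0.83. Adrbk2, the receptor kinase gene also called Grk3, had 47.9 ± 3.92 CPM in 129 against 9.77 ± 1.22 CPM in PWK. It was lower in PWK at -1.36 ± 0.08 (adjusted p 3.24e-22), where all 4 receptor genes were higher. Rgs6, whose product turns off vagal signalling in the heart, had 16.8 ± 3.09 CPM in B6 against 4.01 ± 1.02 CPM in Cast. Rgs5, a pericyte marker, had 644 ± 64.7 CPM in WSB against 221 ± 15.9 CPM in Cast.

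Downstream of the cyclases, all 18 phosphodiesterase genes passed, with a median span of 0.88 log2 units. In NZO, 8 of the 18 were lower and 3 higher (18.6% and 22.5% of all tested genes). In PWK, 7 of the 18 were higher and 6 lower (27.4% and 26.8%). Pde1c, which encodes a phosphodiesterase activated by calcium and calmodulin, had 155 ± 22.3 CPM in Cast against 31.7 ± 10.3 CPM in WSB. Pde4d, which encodes an enzyme specific for cyclic AMP, had 31.5 ± 2.44 CPM in B6 against 11.7 ± 1.69 CPM in PWK. It was lower in PWK at -1.15 ± 0.11 (adjusted p 1.84e-13). Protein kinase A, EPAC and anchoring genes passed in 18 of 20 cases (median span 0.82), with 11 higher and 4 lower in PWK (27.4% and 26.8% of all tested genes). Rapgef4, the EPAC2 gene, had 31.6 ± 2.28 CPM in B6 against 13.4 ± 1.33 CPM in WSB. Of the kinase's substrates and their phosphatase control, 17 of 19 passed (median span 0.69). Mybpc3, a thick filament protein gene, had 3682 ± 341 CPM in NOD against 1579 ± 207 CPM in Cast. Hspb6, a small heat shock protein gene, had 723 ± 122 CPM in NZO against 356 ± 21.6 CPM in AJ.

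The Gq arm that α1 receptors use passed in 14 of 14 genes (median span 1.05), and in PWK 9 were higher and 4 lower (27.4% and 26.8% of all tested genes). Plcb4, a phospholipase C gene, had 113 ± 4.84 CPM in PWK against 48.8 ± 4.47 CPM in NZO, so its extremes were those of Adra1b. Itpr3, an IP3 receptor gene, had 27.0 ± 2.78 CPM in NZO against 10.8 ± 1.19 CPM in 129. Prkce, a protein kinase C gene, had 52.2 ± 3.54 CPM in B6 against 23.3 ± 1.46 CPM in AJ, the strain with the lowest Adra1a. Vagal channels and cholinesterases passed in 7 of 7 genes with a median span of 1.52, and in WSB, where Chrm2 was lower, 4 were lower and 1 higher (19.8% and 25.6% of all tested genes). Hcn4, a pacemaker channel gene, had 10.2 ± 2.54 CPM in NZO against 3.55 ± 1.02 CPM in Cast, and Bche, a cholinesterase gene, had 79.8 ± 7.48 CPM in AJ against 10.96 ± 4.03 CPM in Cast. Genes of catecholamine supply and clearance passed in 11 of 11 cases (median span 1.22), and in NZO 6 were higher and none lower (22.5% and 18.6% of all tested genes). Summed autonomic neuron markers, 5 of 8 measured, were 12.3 CPM in NZO_8 and at most 4.68 CPM in any other library. The part of NZO_8 in the NZO counts was not tested. Slc22a3, an extraneuronal monoamine transporter gene, had 24.3 ± 2.02 CPM in 129 against 8.59 ± 3.51 CPM in WSB.

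**Figure D5:**
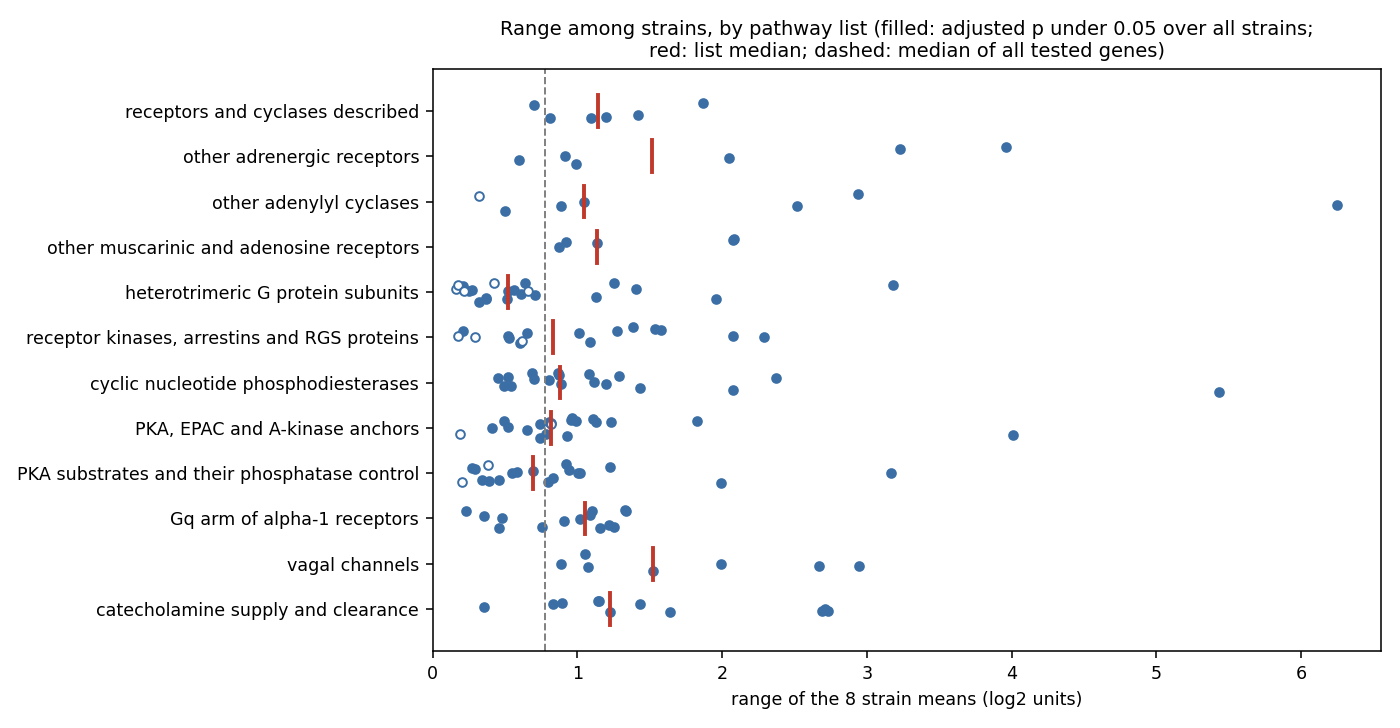
Span of the 8 strain means (x axis, log2 units) of each tested gene, by pathway list (y axis), with filled points where the test over all strains passed, a red line at the list's median and a dashed line at the median of all tested genes. The 6 receptor and cyclase genes have a median of 1.14, against 0.78 for all tested genes, and the G protein subunits have the lowest list median, at 0.52. The other adrenergic receptors include Adra2a, which passed the filter on low counts through Cast alone.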

How the data were processed

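Heart polyA RNA with ERCC spike-in was sequenced from 63 libraries, per the labels' protocols. The authors deposited estimated counts for each gene, without normalisation, placed on GRCm38 per the submitters' processing notes. Of its values, 18.4% are not whole within 1e-06. The aligner, counter and strand use were not given in the sources used here. A second deposited table holds log2 values that the authors variance-stabilised, with DESeq2 per the submitters' processing notes, and it served as an alternative only. The reference genome comes from B6, and loss of reads to variants of other strains was not tested. Spike-ins were not analysed here.

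Counts were rounded and tested in R 4.3.3 with edgeR 4.0.16 (filterByExpr with a minimum count of 10, 2795 genes left out, TMM, robust quasi-likelihood, 1 coefficient per strain, 55 residual degrees of freedom, Benjamini-Hochberg over 16425 genes, threshold 0.05). CPM are on the TMM scale, and log2 CPM used a prior count of 2. A strain was set against the unweighted mean of the other 7 on the log scale, and the CPM given for the others is the mean of their 7 means. The 8 comparisons share libraries. Shares of tested genes without overlap were counted only for 1 strain against all others, not for pairs or other splits of the strains. Exon lengths and coordinates are from GENCODE M21. Total counts, 21.8 M to 42.9 M, set the precision of low genes.

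The 6 genes, the lists and the rules were chosen with earlier results of these data known. For each list, the up to 4 genes past the test with the widest span and an average log2 CPM not under 1 could be named, and some of these are named. In simulated data for PWK over 16425 genes, 50 genes were changed for each size and direction of change. The procedure recovered 68% of falls and 70.0% of rises of 0.5 log2 units and 100.0% of changes of 1 unit there. In the measured hearts 54.2% of all tested genes were called in PWK in either direction. Recovery with so many genes called, or at the spread of the 6 genes, was not tested. Alternatives used DESeq2 1.42.0 and limma 3.58.1. No 2 libraries held identical values. Near-identical copies (95% identity over 50% of the shorter transcript, blastn 2.17.0) were found for Adcy6 alone, with its antisense partner Gm29331.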

Additional observations from a re-analysis of the deposited data

Results flagged for a closer look

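Over 48 groups (6 genes in 8 strains), the gap between an extreme library and its nearest neighbour, divided by the range, was above the 95% critical value of 0.526 for 8 libraries in 4 groups. About 1 in 20 groups is picked out this way by chance. In 3 of the 4 the library was WSB_1, which had 3.54 CPM of Adrb1 (nearest WSB library 9.999 CPM), 18.2 CPM of Chrm2 (nearest 101 CPM) and 34.4 CPM of Adcy5 (nearest 92.1 CPM). Adra1a and Adra1b were 5.30-fold and 8.55-fold lower in WSB_1 than in the mean of the other 7 WSB libraries and did not pass that limit. Myh6, the main myosin heavy chain gene of the adult mouse heart, was at 13806 CPM in WSB_1, while Tnnt2, another cardiomyocyte marker, was not low there (4980 CPM). Summed adipocyte markers were 51.2 CPM in WSB_1 against 5.44 ± 5.77 CPM in the other 7 (SD). The part of these differences in the 5 low genes was not tested. The fourth was WSB_7, with 237 CPM of Adcy6 against 289.6 CPM or more in the other WSB libraries.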

How the results depend on the processing

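For the 6 genes, the test over all strains and the 8 strain comparisons were recomputed under 12 alternatives, of which the atrial covariate without WSB_1 and the omission of Cast_5 and Cast_6 were added after the data were seen. Of the 648 values, 635 kept their side of the threshold, 6 lost and 7 gained a call. Of the values called in either fit, 0 changed direction. Values called in neither could change sign and were counted as kept, such as Adra1b in WSB (-0.22 to 0.10 over the alternatives). The test over all strains kept its call for each gene. Scaling by DESeq2 size factors or without mitochondrial genes, no filter on low counts, the DESeq2 test and the atrial covariate changed no call. Without AJ_2, AJ_7 and AJ_8 (AJ then n = 5), the calls in AJ were lost for Adcy5 (0.22, adjusted p 0.0647) and Adrb1 (-0.34, adjusted p 0.0697). For Chrm2 in Cast the log2 fold change was 0.32 by limma on the variance-stabilised table (adjusted p 0.0634), 0.049 without Cast_1, Cast_5 and Cast_6 (adjusted p 0.834) and 0.016 without Cast_5 and Cast_6. For Chrm2 in NZO limma gave -0.32 (adjusted p 0.0679). Calls gained without WSB_1, and then with the atrial covariate as well, were Adra1a in NZO (-0.32 and -0.29), Adra1b in NOD (-0.29 and -0.31) and Adrb1 in B6 (0.23 and 0.23). Adra1a in WSB (0.27) was gained only without the covariate. The cause was not tested. Leaving out WSB_1 also changed the share of all tested genes called in either direction. It went from 31.8% to 37.5% in B6, from 33.6% to 39.9% in NOD and from 41.0% to 47.0% in NZO. In WSB it went from 45.4% to 43.5%. Counts of genes called stayed within 1.5 times their main value.

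The replicate numbers were not taken to pair the libraries, since not every same-numbered pair had a correlation over 0.1. That rule cannot show that the numbers carry no structure. Same-numbered libraries of different strains had a mean correlation of deviations of 0.04 (199 pairs, 20.1% of them over 0.1), against -0.01 for 1537 pairs with different numbers (10.9% over 0.1), and 15 of 63 libraries correlated best with their own number. With the number as a replicate block, 14712 genes passed over all strains, against 14837 without it, and no call changed for the 6 genes. The fitted ranges under the block were 1.88 (Adra1a), 1.27 (Chrm2), 1.17 (Adra1b), 1.08 (Adcy5), 0.81 (Adcy6) and 0.67 (Adrb1) log2 units.

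Adrb1 and Adra1b had 127 counts each in WSB_1, the fewest of the 6 genes in any library. The SE of a strain comparison of Adrb1 was between 0.11 and 0.12 log2 units. The smallest difference called for it was 0.30 ± 0.11 in 129, and 0.25 ± 0.11 in B6 was not called. Differences well above 1 SE could thus be missed at this depth and number of libraries.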
